A study of Mus musculus with 12 samples.

Results

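The dorsal meninges of aged mice were compared 1.5 months after a mild traumatic brain injury (TBI) and after a sham procedure. The members of the comparison are the libraries that the sample labels name as aged, 3 with injury (Aged TBI 1 to 3) and 3 with sham (Aged Sham 1 to 3), which makes 6 of the 12 bulk RNA libraries of the series, and all genes of the deposited count table entered. Aged TBI mice were male C57BL/6 mice of 20 to 24 months that received a single closed-skull impact over the right inferior temporal lobe. Aged Sham mice were of the same sex, strain and age and had anaesthesia and positioning without an impact. Young TBI and Young Sham mice, 10 weeks old and male, had the same procedures and interval, and serve here as a second comparison of 3 libraries against 3. No group carried a transgene. Each library pooled several mice, the tissue was scraped from the skullcap after perfusion with saline, and the point of impact lay outside the piece collected, so that the data describe meninges at a distance from the lesion. Aged mice came from another colony than young mice, and colony and age cannot be told apart.

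The meninges are the membranes between skull and brain. Fibroblasts lay down their collagen, arachnoid cells form a barrier layer sealed by tight junctions, and blood vessels, lymphatic vessels and resident immune cells such as macrophages and mast cells run through the outer layer, the dura. The choroid plexus is a different tissue. It hangs in the ventricles of the brain, its epithelium secretes cerebrospinal fluid, and its hallmark transcripts are those of transthyretin (Ttr), the hormone carrier, of Klotho (Kl), a membrane protein that also circulates, and of the membrane protein Tmem72. Multiciliated cells, such as those that line the ventricles, move this fluid with motile cilia. A scraped sample of meninges can carry fragments of such neighbours, as well as of bone, muscle, skin or pituitary gland.

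The 6 aged libraries held between 12467317 and 16087717 counts each. Markers of the labelled tissue were present in all of them. The summed level of 16 fibroblast markers lay between 10579 and 11671 CPM in Aged TBI, against 9952 and 11977 CPM in Aged Sham, where CPM are counts divided by the TMM-scaled library size and scaled as usual. Some single libraries stood apart. Aged Sham 3 had 1033 CPM of growth hormone (Gh), a pituitary hormone, against no more than 7.47 CPM in any other aged library, and it also had 973 CPM of Ibsp and 2556 CPM of Spp1, which encode bone matrix proteins. The summed level of 14 skeletal muscle genes was 2531 CPM in Aged TBI 2, against between 49.0 and 78.7 CPM in the other 5 aged libraries. Krt5, a keratin of skin, had 46.2 CPM in Aged TBI 1 and no more than 1.30 CPM elsewhere among the aged libraries. None of Gh, Ibsp, Spp1 and Krt5 passed the test described next, and results that rest on these libraries are given with and without them.

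**Figure D1:**
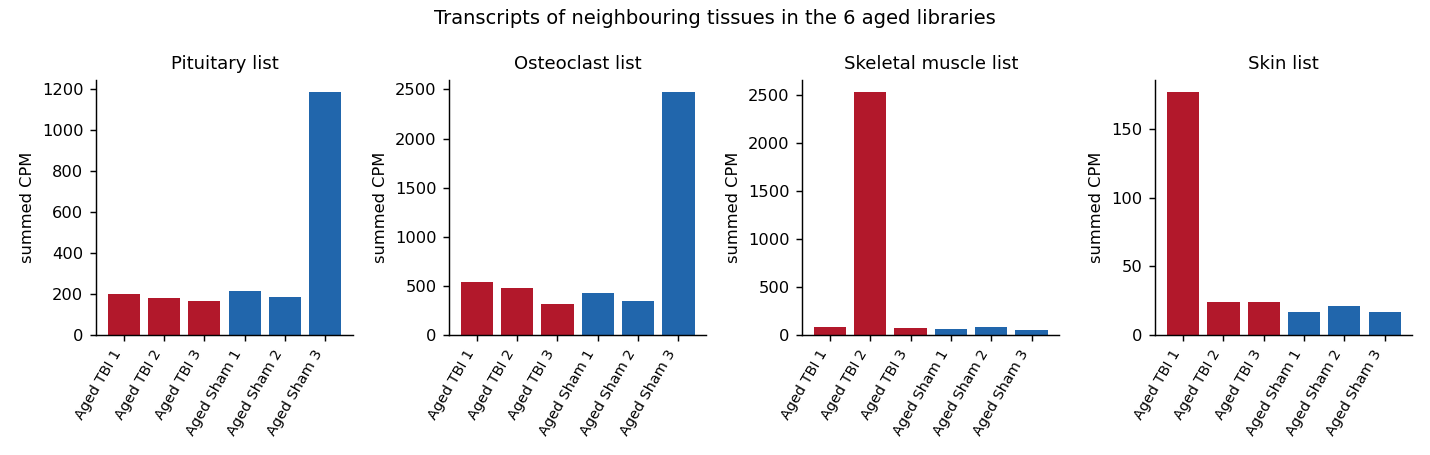
Summed CPM of 4 marker lists in each of the 6 aged libraries, with Aged TBI in red and Aged Sham in blue. One library per list stands out: Aged Sham 3 for pituitary (1186 CPM) and osteoclast (2476 CPM) genes, Aged TBI 2 for skeletal muscle (2531 CPM) and Aged TBI 1 for skin (177 CPM).

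The first question was how many genes separated injured from sham meninges in aged mice, and in which direction. Of 18238 genes tested, 301 (1.65%) passed an adjusted p under 0.1, the threshold used by the study. In Aged TBI 71 genes (0.389%) were higher and 230 (1.26%) were lower. Here and below, p-values came from edgeR's quasi-likelihood test over all 12 libraries with Benjamini-Hochberg adjustment over all genes, changes are log2 fold changes ± standard error of Aged TBI over Aged Sham, and a gene past the threshold is said to be called. The genes called lower changed more, with a median log2 fold change of -1.02 and 116 genes beyond 2-fold, against a median of 0.33 and 4 genes beyond 2-fold among those called higher. Over all genes tested the median was 0.0091. In all 301 called genes the 3 Aged TBI libraries lay on one side of the 3 Aged Sham libraries, and over all genes the same held for 1551 above (8.5%) and 1598 below (8.76%).

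These calls lay close to the threshold. In the edgeR fit to all 12 libraries the smallest adjusted p was 0.0802, shared by 151 genes, and 0 genes passed 0.05. In that fit 2633 genes (14.4%) had an unadjusted p under 0.05. By edgeR, 0 genes were called without Aged Sham 2 (2597 at an unadjusted p under 0.05), 0 without Aged TBI 1 (2295) and 1 without Aged TBI 3 (2339). The counts were 79 higher and 140 lower without Aged Sham 1, 68 and 219 without Aged Sham 3, and 48 and 219 without Aged TBI 2. No gene was called in every one of these 6 refits, and the most that any gene reached was 3. In each refit all 301 genes kept the sign of their change. Their groups did not overlap, so leaving out a single library could hardly change a sign, and this says nothing on stability. Without both Aged Sham 3 and Aged TBI 2, the libraries with pituitary, bone or muscle transcripts, 71 genes were higher and 275 lower. DESeq2 called 157 genes higher and 479 lower, with a smallest adjusted p of 1e-06, and limma voom with sample weights 80 higher and 172 lower. The 6 aged libraries fitted alone gave 1 higher and 69 lower in edgeR.

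**Figure D2:**
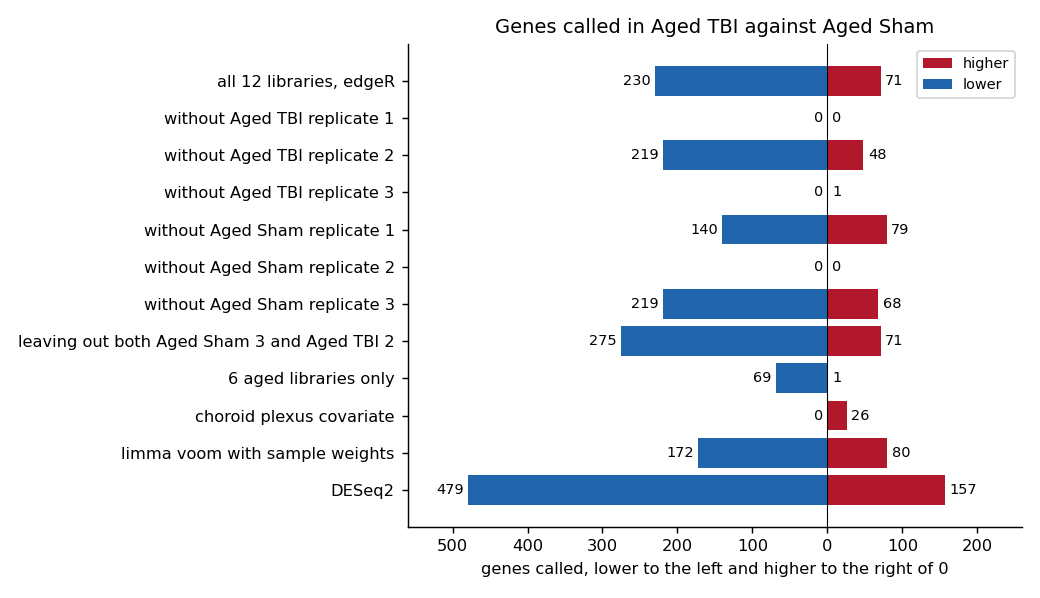
Number of genes called higher (red, to the right of 0) and lower (blue, to the left) in Aged TBI against Aged Sham at an adjusted p under 0.1, for the fit to all 12 libraries and for 11 alternatives. Calls vanish or nearly vanish without Aged TBI 1, Aged TBI 3 or Aged Sham 2, and no lower call is left once the choroid plexus level enters the model.

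The largest set of genes lower in Aged TBI was that of the choroid plexus. Of 20 markers, all tested, 10 were called lower and 0 higher, 19 had a negative sign, and the median log2 fold change was -1.57, against 0.0091 over all genes. In the young comparison the median of the same markers was -0.29. The summed level of the 20 markers was 3253, 5078 and 2451 CPM in Aged TBI 1 to 3, against 10452, 7727 and 7550 CPM in Aged Sham 1 to 3. The groups did not overlap, and Aged TBI 2 was the highest of the injured libraries. In bulk tissue, fewer cells of a type and less RNA per cell cannot be told apart, nor can either be told from a smaller fragment of choroid plexus in the scraped sample. The list's median lay between -1.99 and -1.28 when any of the 6 aged libraries was left out.

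Ttr had 1021, 1797 and 662 CPM in Aged TBI 1 to 3, against 3374, 2620 and 2699 CPM in Aged Sham 1 to 3. The groups did not overlap, but the change (-1.32 ± 0.34) had an adjusted p of 0.109 and was not called. Kl (chromosome 5, 150952607 to 150993817, GRCm38) had 54.8, 116 and 34.5 CPM in Aged TBI, against 375, 236 and 186 CPM in Aged Sham. It fell by 1.96 ± 0.47 on the log2 scale (adjusted p = 0.094). Tmem72 had 16.5, 31.7 and 8.22 CPM in Aged TBI, against 111, 77.2 and 66.5 CPM in Aged Sham, and fell by 2.17 ± 0.45 (adjusted p = 0.0802). For all 3 genes the order within the injured group was the same, with Aged TBI 3 lowest and Aged TBI 2 highest. In the young libraries Ttr had 3153, 1769 and 3529 CPM in Young TBI, against 3700, 2136 and 3113 CPM in Young Sham, and these groups overlapped. The levels of Ttr, Kl and Tmem72 thus differed between single libraries in every group, and the 3 Aged TBI libraries held the low end of the range for Kl and Tmem72, together with Young TBI 2 at 126 and 32 CPM.

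**Figure D3:**
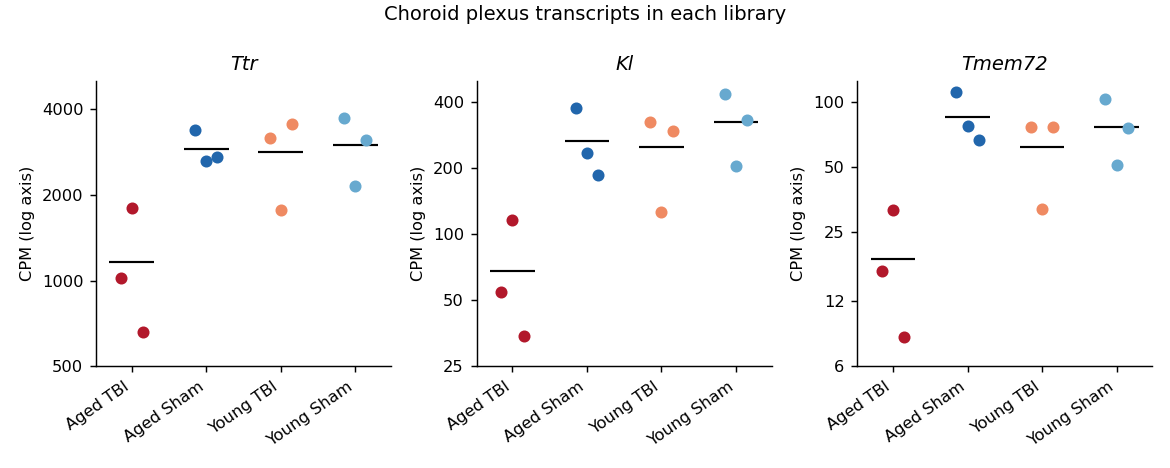
CPM (log axis) of the choroid plexus transcripts Ttr, Kl and Tmem72 in the 12 libraries, 1 point per library, with the group mean as a line. Aged TBI lies below Aged Sham in all 3 panels, whereas Young TBI overlaps Young Sham, with Young TBI 2 at 1769 CPM of Ttr.

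The called choroid plexus genes covered its secreted products, its transport of ions and nutrients, and its junctions. Enpp2, or autotaxin, a secreted enzyme that makes lysophosphatidic acid, had 885, 1599 and 512 CPM in Aged TBI, against 4128, 2811 and 2762 CPM in Aged Sham (-1.70 ± 0.40, adjusted p = 0.0933). Slc4a5, a sodium bicarbonate cotransporter of the apical membrane, had 33.6, 54.2 and 33.1 CPM in Aged TBI, against 136, 105 and 110 CPM in Aged Sham (-1.54 ± 0.27, adjusted p = 0.0802). It was called in 3 of the 6 refits that left out an aged library, more than Kl or Tmem72, which were called in 2. The potassium channel Kcnj13 fell by 1.86 ± 0.40, the chloride channel protein Clic6 by 1.67 ± 0.36, the cation channel Trpm3 by 1.33 ± 0.27, the metalloreductase Steap1 by 2.0 ± 0.35 and the folate receptor Folr1 by 1.59 ± 0.39. Outside the marker list, the anion exchanger Slc4a2 (-0.80 ± 0.16) and the carbonic anhydrase Car12 (-1.98 ± 0.45) were also called lower, and were picked after their values were seen. Cldn2, the claudin of leaky epithelia, had 13, 20.5 and 9.05 CPM in Aged TBI, against 59.9, 40.6 and 45.8 CPM in Aged Sham, and fell by 1.77 ± 0.35 (adjusted p = 0.0802).

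The choroid plexus level was then set against every called gene, without using the aged libraries. Across the 6 young libraries, which are not part of the comparison, Pearson's r was computed between each gene and the mean log2 CPM of Ttr, Kl and Tmem72. The points share the library and its normalisation, and r is given as a description with n = 6. Of the 230 genes lower in Aged TBI, 156 (67.8%) had an r over 0.8, with a median r of 0.917, whereas over all genes tested 1049 (5.75%) had such an r and the median was -0.0275. Among the 71 genes higher in Aged TBI the number was 0. Of the 1049 genes, 855 had a negative sign in the aged comparison, 156 were called lower and 0 higher. Most genes called lower after injury in aged mice were therefore genes that varied with choroid plexus transcripts among young libraries as well.

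**Figure D4:**
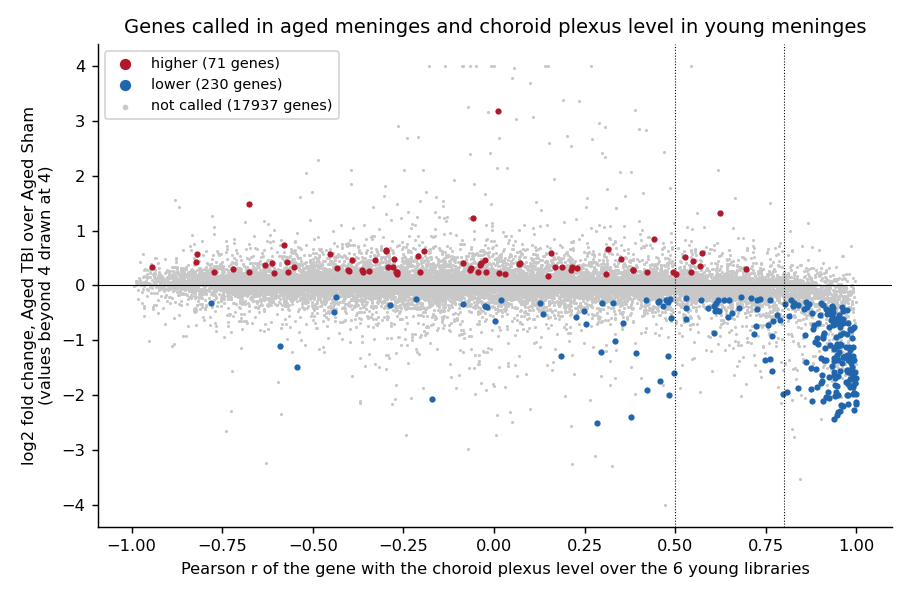
Log2 fold change of Aged TBI over Aged Sham for 18238 genes, against each gene's Pearson r with the choroid plexus level (mean log2 CPM of Ttr, Kl and Tmem72) over the 6 young libraries, with dotted lines at r of 0.5 and 0.8. Of the 230 genes called lower, 156 crowd to the right of 0.8, while the 71 genes called higher spread to its left.

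When the choroid plexus level of each library entered the model as a covariate, 0 of the 230 genes were called lower by edgeR, and over all genes 1166 had an unadjusted p under 0.05. Of the 230 genes, 220 kept their sign, with a median of -0.23. The 71 genes called higher all kept their sign with a median of 0.32, and 0 of them were called. The covariate was between 5.85 and 7.55 in Aged TBI and between 8.33 and 9.02 in Aged Sham, so that it did not overlap between the groups, and the median standard error of the 301 genes was 0.172 with it and 0.146 without it. The loss of a call under this fit does not show that a gene did not change. The covariate fit called 26 other genes, all higher, of which 11 are in the skeletal muscle list, such as Acta1 with 7.98, 410 and 5.78 CPM in Aged TBI, against 6.33, 6.19 and 5.27 CPM in Aged Sham. Most of the others were further muscle genes outside that list, such as Ttn, Neb, Trdn and Ryr1. Without Aged TBI 2, where muscle transcripts were high, 0 genes were called with the covariate in edgeR, and 808 had an unadjusted p under 0.05.

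Genes of motile cilia were lower together with the choroid plexus genes. Of 15 markers, 10 were tested, 2 were called lower and 0 higher, 8 had a negative sign, and the median was -1.04 (young comparison -0.31). The promoters of 3 called genes are shown because factors of the RFX family, which bind the promoters of cilia genes at repeats of letters close to GTTGCC, include 2 genes of this set, Rfx2 and Rfx3. The windows run from 250 bases before to 50 bases after the start of the gene (RefSeq, GRCm38.p6), and capitals mark GTTGCC, searched on both strands, with GGCAAC as its reverse complement. They cover chr16:16829314-16829613 (minus strand) for Spag6l, chr9:107547054-107547353 (plus strand) for Zmynd10 and chr19:28011117-28011416 (minus strand) for Rfx3.
Spag6l: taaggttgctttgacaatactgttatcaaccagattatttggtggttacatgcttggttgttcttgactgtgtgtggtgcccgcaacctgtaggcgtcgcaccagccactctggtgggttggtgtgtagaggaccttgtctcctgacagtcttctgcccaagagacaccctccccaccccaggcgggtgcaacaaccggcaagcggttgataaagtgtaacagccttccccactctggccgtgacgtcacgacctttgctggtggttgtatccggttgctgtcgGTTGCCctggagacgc
Zmynd10: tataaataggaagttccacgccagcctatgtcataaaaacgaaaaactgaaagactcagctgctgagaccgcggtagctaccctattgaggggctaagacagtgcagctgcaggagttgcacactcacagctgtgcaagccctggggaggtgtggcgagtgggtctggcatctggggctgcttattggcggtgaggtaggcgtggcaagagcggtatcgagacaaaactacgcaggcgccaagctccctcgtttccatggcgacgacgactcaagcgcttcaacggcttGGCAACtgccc
Rfx3: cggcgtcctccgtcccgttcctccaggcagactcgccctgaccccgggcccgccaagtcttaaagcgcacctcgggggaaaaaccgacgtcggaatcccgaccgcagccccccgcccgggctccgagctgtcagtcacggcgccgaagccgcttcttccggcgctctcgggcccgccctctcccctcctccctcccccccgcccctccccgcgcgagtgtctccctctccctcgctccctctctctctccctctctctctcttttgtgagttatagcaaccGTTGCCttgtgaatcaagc

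The 6 letters occurred in the promoter of 41 of 180 genes called lower that had a window (22.8%), of 8 of 45 called higher (17.8%), of 7 of 13 cilia markers (53.8%) and of 4 of 15 choroid plexus markers (26.7%). Among all genes tested with a window the share was 1915 of 12758 (15%), and among all 32851 windows it was 12.5%. A match of such a short word is a description of the letters, not of a bound site, and the 3 genes printed were chosen among those with a match.

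The values behind these genes were low in every injured library. Spag6l, a protein of the central pair of the cilium, had 1.89, 2.53 and 0.989 CPM in Aged TBI, against 10.0, 4.96 and 6.98 CPM in Aged Sham (-2.0 ± 0.44, adjusted p = 0.0802). Zmynd10, needed to assemble dynein arms, had 1.40, 1.10 and 0.685 CPM in Aged TBI, against 4.30, 2.58 and 3.0 CPM in Aged Sham (-1.60 ± 0.36, adjusted p = 0.0811). Rfx3 had 6.52, 8.77 and 7.53 CPM in Aged TBI, against 10.8, 10.5 and 11.6 CPM in Aged Sham (-0.53 ± 0.13, adjusted p = 0.0935). The groups did not overlap for any of these genes. Other parts of the cilium that were called lower, picked after their values were seen except for Cfap43, Daw1 and Trp73, were the axonemal dynein subunits Dnah6 (-1.95 ± 0.45) and Dnali1 (-1.67 ± 0.37), the dynein regulatory complex member Drc7 (-1.96 ± 0.46), the cilia-associated proteins Cfap43 (-0.88 ± 0.21), Cfap65 (-1.69 ± 0.35), Cfap206 (-1.77 ± 0.43) and Maats1 (-1.95 ± 0.36), and the dynein assembly factors Dnaaf1 (-1.22 ± 0.26) and Daw1 (-2.51 ± 0.51). Upstream of these, Gmnc (-2.05 ± 0.45) and the p53 relative Trp73 (-2.18 ± 0.52), both needed to form multiciliated cells, and Rfx2 (-0.60 ± 0.13) were called lower. Foxj1, the master regulator of motile cilia, had 6.64, 13.7 and 4.94 CPM in Aged TBI, against 35.7, 23 and 19.7 CPM in Aged Sham, and its adjusted p of 0.111 missed the threshold.

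Most of these cilia genes also followed the choroid plexus level among young libraries, with an r of 0.97 for Spag6l, 0.99 for Drc7, 0.92 for Gmnc and 0.96 for Trp73. Lower values of r were found for Rfx3 (0.14), Daw1 (0.28), Dnaaf1 (0.29) and Zmynd10 (0.50). Daw1 and Dnaaf1 are low transcripts, with Daw1 at no more than 2.11 CPM in any aged library.

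Other genes with the deepest falls stood mostly beside the choroid plexus set. Slc7a10, a neutral amino acid transporter, had 2.56, 6.57 and 1.37 CPM in Aged TBI, against 22.3, 15.7 and 12.9 CPM in Aged Sham (-2.27 ± 0.47, r = 0.99). Slc29a4, a monoamine transporter, had 6.09, 18.8 and 4.56 CPM in Aged TBI, against 53.9, 45.2 and 29.4 CPM in Aged Sham (-2.12 ± 0.50, r = 0.999). In both genes Aged TBI 2 was the highest of the injured libraries, as it was for Ttr. The melanocortin receptor accessory protein Mrap2 (-2.31 ± 0.46), the serine protease Tmprss11a (-2.36 ± 0.49), Tmem108 (-2.15 ± 0.48), the nuclear receptor Esrrb (-2.11 ± 0.50), Ldc1 (-2.11 ± 0.47) and the noncoding transcript Six3os1 (-2.44 ± 0.53) had an r between 0.88 and 0.98. An exception was Lgals12, a galectin of fat cells, with 0.122, 0.274 and 0.304 CPM in Aged TBI, against 1.56, 1.36 and 0.811 CPM in Aged Sham (-2.41 ± 0.54, r = 0.38). The fat cell marker Cidea also fell, by 1.35 ± 0.30 with an r of 0.75, yet 4 of the 6 tested fat cell markers had a positive sign and their median was 0.28. Igsf1 (-1.93 ± 0.30, r = 0.81), the retinol dehydrogenase Rdh5 (-0.71 ± 0.11, r = 0.88), the heparan sulfatase Sulf1 (-0.65 ± 0.10, r = 0.77) and Polr1a (-0.54 ± 0.08, r = 0.90), the catalytic subunit of RNA polymerase I, had the smallest p-values among the genes called lower, along with Kif1a and Col4a3.

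Of the 230 genes, 40 had an r under 0.5 with the choroid plexus level among young libraries. With so few libraries, such an r does not show that a gene is unrelated to that level. The share of all genes tested with an r under 0.5 was not computed. The 40 genes had a median log2 fold change of -0.51, and 14 were beyond 2-fold. All 40 kept a negative sign with the covariate, at a median of -0.43. The young libraries behind the choice of these genes also enter the covariate fit, so the kept sign is not independent of that choice. Kif1a (chromosome 1, 93015464 to 93101951), a kinesin that carries vesicles along axons, had 54.5, 62.0 and 54.2 CPM in Aged TBI, against 83.5, 96.6 and 93.3 CPM in Aged Sham. It fell by 0.68 ± 0.10 (adjusted p = 0.0802), with an r of 0.36 and a change of -0.50 under the covariate. Its call was lost without Aged Sham 2 (adjusted p = 0.134), Aged TBI 1 (adjusted p = 0.215) or Aged TBI 3 (adjusted p = 0.201). Col4a3 (chromosome 1, 82586921 to 82722059), a chain of type IV collagen in specialised basement membranes, had 3.41, 4.18 and 3.88 CPM in Aged TBI, against 8.76, 7.48 and 6.98 CPM in Aged Sham (-1.02 ± 0.16, r = 0.33). For both genes the groups did not overlap, and Aged TBI 2 was the highest of the injured libraries, as it was for Ttr.

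Other genes of this set had smaller falls, and their groups did not overlap. The scaffold protein Shank2 had 23.3, 26.0 and 22.6 CPM in Aged TBI, against 34.9, 33.2 and 32.4 CPM in Aged Sham (-0.48 ± 0.08, r = -0.44). F11r, the junctional adhesion molecule JAM-A, had 43.9, 53.8 and 50.5 CPM in Aged TBI, against 58.7, 68.6 and 64.9 CPM in Aged Sham (-0.38 ± 0.08, r = 0.47). Fdft1, or squalene synthase, had 38.3, 38.6 and 36.1 CPM in Aged TBI, against 47.7, 48.7 and 46.9 CPM in Aged Sham (-0.34 ± 0.08, r = -0.08). It was the only called member among 21 tested genes of cholesterol synthesis, of which 15 had a negative sign with a median of -0.10. Further genes of the 40, picked after their values were seen apart from Plekha6, were the homeobox gene Tlx2 (-1.75 ± 0.35), Plekha6 (-0.36 ± 0.07), the glucokinase regulator Gckr (-0.32 ± 0.07), the NF-kappaB adaptor Card10 (-0.31 ± 0.07), the histone methyltransferase Kmt2d (-0.26 ± 0.06) and the phospholipid flippase Atp11a (-0.25 ± 0.06).

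Genes higher in Aged TBI changed by less. None had an r over 0.8 with the choroid plexus level, but 3 had an r under -0.8. Among these were Micu2 (r = -0.94) and Insm1 (r = -0.82), whose log2 fold changes were 0.22 and 0.32 with the covariate. The share of all genes tested with an r under -0.8 was not computed. The transcription cofactor Cited4 had 5.67, 7.74 and 7.76 CPM in Aged TBI, against 4.22, 4.22 and 3.24 CPM in Aged Sham, and rose by 0.85 ± 0.17 (adjusted p = 0.0802). Epha3 (chromosome 16, 63543534 to 63864175), a receptor for ephrin ligands on neighbouring cells, had 174, 125 and 138 CPM in Aged TBI, against 104, 94.4 and 85.1 CPM in Aged Sham (0.63 ± 0.11, adjusted p = 0.0802). Both genes separated the groups with no overlap. Epha3 was called without Aged Sham 1, Aged Sham 3 or Aged TBI 2, but not without Aged Sham 2 (adjusted p = 0.134), Aged TBI 1 (0.215) or Aged TBI 3 (0.201). Its adjusted p over all the leave-one-out refits lay between 0.0481 and 0.215.

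Among the genes called higher were several transcription factors. Foxd1, a forkhead factor of meningeal cells, had 192, 163 and 224 CPM in Aged TBI, against 135, 125 and 124 CPM in Aged Sham (0.59 ± 0.11, adjusted p = 0.0802). It was the only called member of the 16 arachnoid and pial markers, of which 8 had a positive and 8 a negative sign. Foxp2 (chromosome 6, 14901349 to 15441977), another forkhead factor, had 90.1, 90.7 and 96.1 CPM in Aged TBI, against 71.1, 67.8 and 62.0 CPM in Aged Sham (0.46 ± 0.07, adjusted p = 0.0802). Its 3 injured libraries lay within a few CPM of each other and well above the sham libraries. The zinc finger factors Insm1 (0.57 ± 0.12) and Snai2 (0.48 ± 0.12) and the leucine zipper factor Maf (0.31 ± 0.07) were called as well, and so were the Wnt regulators Dact3 (0.45 ± 0.09) and Dkk3 (0.21 ± 0.05) and the hedgehog coreceptor Gas1 (0.40 ± 0.09). Snai2, Maf, Dact3 and Gas1 were picked after their values were seen. Among 30 Wnt signalling genes Dkk3 was the only one called higher and Fzd4, a Wnt receptor, the only one called lower (-0.27 ± 0.06).

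Other called genes encode cytoplasmic and matrix proteins. Marcks, an actin-binding substrate of protein kinase C, had 274, 266 and 216 CPM in Aged TBI, against 202, 165 and 144 CPM in Aged Sham (0.56 ± 0.12, adjusted p = 0.0802). Camk2a, a kinase typical of neurons, had 10.4, 12.4 and 9.28 CPM in Aged TBI, against 7.90, 7.41 and 6.00 CPM in Aged Sham (0.59 ± 0.14, adjusted p = 0.0925), and was the only called gene of 10 tested neuron markers, whose median was 0.04. Tmem160 (0.62 ± 0.13), Commd1 (0.53 ± 0.12), Sap30l (0.49 ± 0.11) and the protease inhibitor Serpinb1a (0.64 ± 0.16) were also called higher. The 4 genes beyond 2-fold were an antibody variable segment, Ighv1-54 (3.18 ± 0.65), the pseudogenes Gm49330 (1.49 ± 0.34) and Fth-ps2 (1.23 ± 0.28), and the predicted transcript Gm43618 (1.32 ± 0.30), which the rule for named genes sets aside. Enzymes of collagen and matrix handling, picked after their values were seen, were the serine protease Htra1 (0.33 ± 0.06), the prolyl 3-hydroxylase complex member Crtap (0.31 ± 0.07) and its relative P3h3 (0.23 ± 0.05). Several of the smallest p-values belonged to small changes with tight replicates. Rnf187 had 202, 204 and 201 CPM in Aged TBI, against 173, 164 and 174 CPM in Aged Sham (0.25 ± 0.04). Likewise small were the rises of the mitochondrial calcium regulator Micu2 (0.33 ± 0.05), the chromatin protein Dek (0.25 ± 0.05) and the myosin light chain Myl12a (0.24 ± 0.05).

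**Figure D5:**
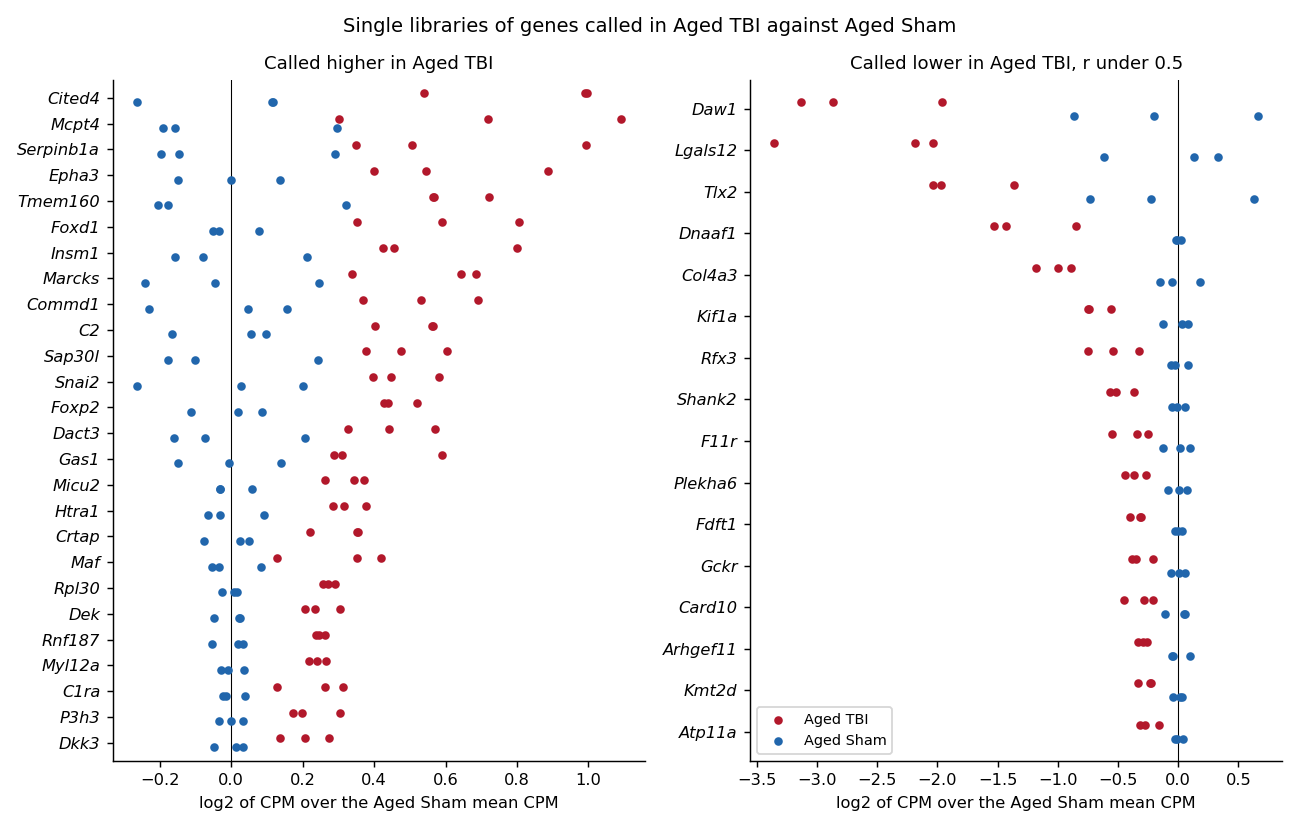
Level of each gene in the 6 aged libraries as log2 of CPM over the mean CPM of Aged Sham, for 26 genes called higher (left) and 16 genes called lower with an r under 0.5 (right), with 1 point per library, Aged TBI in red above Aged Sham in blue. The groups do not overlap for any gene drawn, and the scales of the panels differ: most changes on the left are below 1 log2 unit.

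Ribosomal protein genes showed a small shift in one direction. Of 40 genes tested, 39 had a positive sign, with a median of 0.10, against 0.0091 over all genes, but Rpl30 was the only member called. By edgeR 16 had an unadjusted p under 0.05, all higher in Aged TBI, against 14.4% of all genes tested in either direction. Rpl30 (chromosome 15, 34440505 to 34443640) had 67.6, 68.6 and 66.9 CPM in Aged TBI, against 56.4, 55.1 and 56.7 CPM in Aged Sham, and rose by 0.27 ± 0.05 (adjusted p = 0.0802). The list summed to 12957, 13278 and 12746 CPM in Aged TBI, against 11985, 12222 and 12262 CPM in Aged Sham, without overlap. The median remained positive, between 0.08 and 0.11, without any single aged library. With the choroid plexus covariate the median was 0.13, and the median r of the list with that level was 0.03.

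Mast cell genes mostly had a positive sign, with 1 call. Of 10 markers, 9 had a positive sign, with a median of 0.58 (young comparison 0.18). By edgeR 8 had an unadjusted p under 0.05, all higher in Aged TBI, against 14.4% of all genes tested in either direction. The called gene was Mcpt4 (chromosome 14, 56059629 to 56062313), the chymase of connective tissue mast cells, with 254, 196 and 147 CPM in Aged TBI, against 107, 146 and 104 CPM in Aged Sham (0.74 ± 0.17, adjusted p = 0.0833). The lowest injured and the highest sham library were nearly equal, and the call was lost without any one of the 6 aged libraries, with adjusted p between 0.12 and 0.22. The tryptase Tpsb2 (0.56 ± 0.14, adjusted p = 0.111), the carboxypeptidase Cpa3 (0.64 ± 0.17, adjusted p = 0.117) and the chymase Cma1 (0.61 ± 0.16, adjusted p = 0.122) were not called. The list summed to 804, 689 and 519 CPM in Aged TBI, against 413, 532 and 386 CPM in Aged Sham, so that Aged TBI 3 lay below Aged Sham 2. With the choroid plexus covariate the median was 0.50, and the median r of the list with that level was -0.50.

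Complement was the only other immune list with called genes. Of 19 genes tested, C2, a component of the classical pathway, and C1ra, a protease of the C1 complex, were called higher and 0 lower, and the median was 0.11. C2 had 16.7, 14.9 and 16.7 CPM in Aged TBI, against 11.7, 10.1 and 12.1 CPM in Aged Sham (0.51 ± 0.12, adjusted p = 0.0943). C1ra had 181, 188 and 165 CPM in Aged TBI, against 155, 148 and 149 CPM in Aged Sham (0.24 ± 0.06, adjusted p = 0.0943). Neither gene was called in any of the 6 refits without an aged library.

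Antibody genes were not called in this comparison, in spite of a common sign. All 13 immunoglobulin constant genes had a positive log2 fold change with a median of 0.33, but edgeR called 0 of them and 0 had an unadjusted p under 0.05. Their sum was 4895, 3198 and 2437 CPM in Aged TBI, against 2790, 2906 and 2846 CPM in Aged Sham, so that Aged TBI 1 was high and Aged TBI 3 below all sham libraries. Ighm, the heavy chain of IgM, had 2321 CPM in Aged TBI 1 but 795 and 831 CPM in Aged TBI 2 and 3, against 914, 1239.7 and 1025 CPM in Aged Sham. Without Aged TBI 1 the median was 0.11. With the choroid plexus covariate and all libraries it was 0.02, and the median r of the list with that level was -0.17. No member was called either among 40 genes of the type I interferon response (median 0.06), 15 interferon gamma GTPases (-0.11), 22 genes of antigen presentation (-0.03), 20 T cell markers (0.21), 14 B cell markers (0.23), 14 plasma cell genes (0.23), 20 macrophage and microglia markers (0.14), 31 chemokines and receptors (0.02) or 18 neutrophil markers (0.33). Of the macrophage markers 6 had an unadjusted p under 0.05, all higher in Aged TBI, and of each of the other lists no more than 3 genes did. The share over all genes tested was 14.4% in either direction. The neutrophil sum was 1386, 1274 and 763 CPM in Aged TBI, against 591, 1043 and 1628 CPM in Aged Sham, with Aged Sham 3 the highest of the 6.

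Matrix and barrier genes were called in no more than 2 members of a list. Among 35 collagens, Col4a3 and its partner Col4a4 (-0.93 ± 0.21) were called lower and 0 higher, and the median was 0.0036. Col4a4, unlike Col4a3, had a high r with the choroid plexus level (0.91), and its log2 fold change was -0.26 with the covariate. Among 15 laminin and basement membrane genes, Lamb1 had 64.0, 74.2 and 56.6 CPM in Aged TBI, against 90.0, 89.9 and 117 CPM in Aged Sham, and was the only call (-0.60 ± 0.12). Of these 15 genes 5 had an unadjusted p under 0.05 in edgeR, all lower. Among 29 tested junction genes Cldn2 and F11r, described above, were called lower and 0 higher (median -0.09). At an unadjusted p under 0.05 in edgeR 9 junction genes were lower and 2 higher. The list of small leucine-rich proteoglycans had 0 calls among 11 tested genes, but 10 had a positive sign, with a median of 0.15. By edgeR 4 had an unadjusted p under 0.05, all higher. That list summed to 7019, 6886 and 6565 CPM in Aged TBI, against 6249, 5828 and 5966 CPM in Aged Sham. None of 49 matrix glycoproteins was called in edgeR (median -0.09), and 9 had an unadjusted p under 0.05, 5 higher and 4 lower. The share of all genes tested at that threshold was 14.4% in either direction. Single calls were also made for Aldh1l1 (-0.95 ± 0.19, r = 0.94) among 11 tested glial markers, Mdm2 (-0.26 ± 0.06) among 19 genes of senescence and p53, and Sema3b (-0.61 ± 0.14, r = 0.95) among 35 axon guidance genes.

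The study named 4 matrix and junction genes and 6 immune genes for aged injured mice from these same libraries, so that their counts are not independent evidence. The study took them from a comparison of Aged TBI with Young TBI, which is another comparison than Aged TBI against Aged Sham. With DESeq2 and the same threshold the study tested Aged TBI against Aged Sham as well. It reported more differentially expressed genes there than in its young comparison of injury with sham. The study also measured Col4a1 and Col5a2 by qPCR in dural meninges after injury or sham. From this qPCR the study reported that some of its collagen-related genes were lower in aged mice after injury. Those qPCR measurements are separate from the counts used here and were not examined. The 4 matrix and junction genes were not called with all libraries, and Aged Sham 3 had the highest level of each among the aged libraries. Col4a1, a chain of vascular basement membranes, had 331, 309 and 278 CPM in Aged TBI, against 291, 324 and 616 CPM in Aged Sham, with a log2 fold change of -0.42 ± 0.22 (adjusted p = 0.412) and of -0.01 without Aged Sham 3. Col4a2 gave -0.45 ± 0.22 and -0.02 without that library, Col5a2 -0.14 ± 0.20 and 0.18, and the plakoglobin gene Jup -0.42 ± 0.13 and -0.22. Jup was called lower without Aged Sham 1 (-0.57, adjusted p = 0.0863). Of the 6 immune genes, C2 was called, as given above. Ighg2c had 237, 272 and 259 CPM in Aged TBI, against 84.4, 128 and 276 CPM in Aged Sham (0.66 ± 0.84, adjusted p = 0.773), and the chemokine receptor Cxcr6 (0.46 ± 0.19), Cd24a (0.23 ± 0.19), Casp12 (0.15 ± 0.09) and Zap70 (0.13 ± 0.14) overlapped between the groups.

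Other lists also rested on Aged Sham 3. The 8 tested osteoclast genes had a median of -1.77 with all libraries and of 0.18 without Aged Sham 3. The 16 glucocorticoid response genes summed to 1954, 1817 and 1690 CPM in Aged TBI, against 1313, 1605 and 3691 CPM in Aged Sham, and their median was -0.42 with and 0.29 without Aged Sham 3. The median of 9 lymphatic endothelial genes was -0.33 with and -0.03 without it. The median of 13 skeletal muscle genes was 4.44 with all libraries and 0.25 without Aged TBI 2. None of the members of these 4 lists was called by edgeR in the fit to all 12 libraries without a covariate. At an unadjusted p under 0.05 in that fit there were 6 osteoclast, 1 glucocorticoid response, 2 lymphatic and 13 muscle genes. The share over all genes tested was 14.4% in either direction.

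Whether the response to injury differed with age was tested as an interaction. In edgeR 0 of 18238 genes passed, the smallest adjusted p was 0.643 and 1386 genes (7.6%) had an unadjusted p under 0.05. DESeq2 gave 2 higher and 3 lower, and limma voom with sample weights gave 0. The young comparison by itself gave 1 called gene (0.00548%), Bpifb4, higher in Young TBI, with 757 genes (4.15%) at an unadjusted p under 0.05. A call in aged and not in young mice is therefore not shown to be a difference between ages. Side by side, the 230 genes called lower in Aged TBI had a median of -0.20 in young mice and 207 of them had the same sign there, and the 71 genes called higher had a median of 0.03 and 48 the same sign. The share of all genes tested with the same sign in both comparisons was not computed. The choroid plexus markers had a negative median in both comparisons, and their part in the shared sign was not tested.

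Among the genes with the smallest interaction p-values were 4 of the genes called in aged mice. Kif1a had 91.4, 91.5 and 111 CPM in Young TBI, against 101, 88.5 and 84.2 CPM in Young Sham, and the effect of injury differed between ages by -0.78 ± 0.14 (unadjusted p = 9.81e-05, adjusted p = 0.643). Plekha6 had 65.9, 74.0 and 69.1 CPM in Aged TBI, against 94.2, 84.2 and 89.6 CPM in Aged Sham, and 88.1, 91.2 and 99.9 CPM in Young TBI, against 80.6, 85.0 and 75.6 CPM in Young Sham. For Plekha6 the injured libraries lay below the sham libraries in aged mice and above them in young mice. Foxp2 (0.53 ± 0.10) and Rpl30 (0.36 ± 0.07) had interaction terms of the other sign. Bpifb4 and the potassium channel subunit Kcne4 had the other small p-values. Bpifb4 gave 0.38 ± 0.48 in aged mice and rose by 4.25 ± 0.52 in young mice, and Kcne4 gave 0.37 ± 0.22 in aged mice and -1.23 ± 0.23 in young mice, where it was not called (adjusted p = 0.467). None of these 6 interaction terms passed the adjusted threshold.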

How the data were processed

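Bulk RNA of dorsal meninges was sequenced from 12 libraries in 4 groups of 3. The deposited values are raw counts per gene. According to the methods, HISAT2 placed the reads on mm10, SAMtools served for quality filtering, duplicate and uninformative reads were discarded, and HTSeq gave the authors' counts. Versions, annotation release and strand setting are not given in the sources used here, so reads of overlapping, antisense or near-identical genes may be split. Of 55385 rows, 53275 (96.2%) matched GENCODE M21 (GRCm38). Totals were 8092374 to 16087717 counts, and a count of 0 allows up to 3 counts (counting error only).

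Genes were kept with filterByExpr, scaled by TMM and fitted with a mean per group over all 12 libraries in edgeR 4.0.16 (R 4.3.3, quasi-likelihood, two-sided, Benjamini-Hochberg), with calls at an adjusted p under 0.1. The study used DESeq2, which was run as an alternative (1.42.0), beside limma 3.58.1. Scripts were tested on simulated data. Lists are described by counts of called members and medians, without a test. The labels do not say that libraries of a group are independent beyond their replicate number, so p-values measure the spread between these pools.

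The comparison, the gene lists and the rules were chosen with earlier results of these data known. The rule for named genes took 12 called genes by size of rise, 12 by size of fall (at least 1 CPM in the higher group, no overlap, no predicted genes, pseudogenes or variable segments), the 6 smallest p-values in each direction and for the interaction, called members of lists, up to 3 abundant members of lists without a call, Ttr, Kl, Tmem72, the genes that mark Aged Sham 3 and the genes the study names. Other names were picked after their values were seen.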

Additional observations from a re-analysis of the deposited data

How the results depend on the processing

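For injury in aged mice the main fit called 71 genes higher and 230 lower. Without a filter on low counts the counts were 225 and 481, with DESeq2 157 and 479, with robust dispersion 46 and 131, with the 6 aged libraries alone 1 and 69, with the choroid plexus covariate 26 and 0, with that covariate and without Aged TBI 2 (chosen after seeing the data) 0 and 0, and at an adjusted p under 0.05 0 and 0. RLE factors, library totals, a minimum of 1 CPM in 3 libraries and limma voom stayed within 1.5 times of the main counts, and so did leaving out both Aged Sham 3 and Aged TBI 2, also chosen after seeing the data. Leaving out 1 library gave 0 to 79 genes higher and 0 to 219 lower. The interaction had 0 called genes in each direction in the main fit and in every refit without 1 of the 12 libraries, 3 higher and 2 lower without a filter, and 2 higher and 3 lower with DESeq2. Groups share replicate numbers in the labels, which do not say whether same-numbered libraries were processed together. The deviations of same-numbered aged libraries from their group means correlated at -0.129, -0.0322 and -0.0751. With 3 libraries per group these values cannot decide it. With the replicate number as a block 7 genes were called higher and 49 lower, all 56 of them also called without it. With the covariate 291 of the 301 called genes kept their sign, and among the genes named by rule 3 turned, with log2 fold changes of 0.0499 for Enpp2, 0.13 for Folr1 and 0.079 for Kl, and with the covariate and without Aged TBI 2 222 of 301 kept it and 10 of the genes named by rule turned, at 0.076 for Aldh1l1, 0.028 for Cldn2, 0.019 for Clic6, 0.086 for Enpp2, 0.13 for Folr1, 0.16 for Kl, 0.053 for Mrap2, 0.31 for Spag6l, 0.032 for Trp73 and 0.21 for Trpm3. None of these was called in those fits. The covariate is built from Kl and 2 other genes of the same list, and apart from that the causes of these shifts were not tested. With 3 pools per group and no adjusted p under 0.0802 in the main fit, its calls depend on single libraries. The smallest adjusted p was 1e-06 with DESeq2 and, in edgeR, 0.000156 without a filter and 0.0481 without Aged TBI 2. It was 0.0391 in edgeR without both Aged Sham 3 and Aged TBI 2.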
